A study of Mus musculus with 4 samples.

Results

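The genes described here are 10 axon guidance genes that are also used by blood vessels: the semaphorins *Sema3f*, *Sema3g*, *Sema6a* and *Sema7a*, the plexins *Plxna2*, *Plxnb2* and *Plxnd1*, the Roundabout receptors *Robo1* and *Robo4*, and the netrin receptor *Unc5b*. They were chosen by name, with earlier results of these data known, and they are 10 of 21887 protein-coding genes in the mouse gene table (GRCm38). The data are lists of ChIP-Seq peaks of H3K27ac, histone H3 acetylated at lysine 27, from 2 libraries of isolated mouse liver sinusoidal endothelial cells (LSECs), replicates 2 and 3, which form 1 condition. According to the study's methods, LSECs were taken from mouse liver with magnetic beads against CD146, a surface protein of endothelial cells that pericytes and smooth muscle cells also carry. The methods also describe a culture step after isolation, and whether it applied to these libraries is not stated. The strain, genotype, age and treatment of the mice behind these libraries, and whether cells of several mice were pooled, are not given in the sources used here. The window of a gene was its body and 10 kb on each side. A peak was assigned to a gene end when it lay within 1 kb of either end of the gene body and was otherwise called distal, and a peak with an overlap of 1 bp or more in the other library counted as shared. The 10 windows held 50 of the 26975 peaks of replicate 2 and 138 of the 64498 peaks of replicate 3.

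Semaphorins are secreted, membrane-spanning or lipid-anchored ligands, and plexins are their main receptors. Most secreted class 3 semaphorins reach plexins through the coreceptors neuropilin 1 and 2, while the bound plexin acts on small GTPases that control adhesion and the cytoskeleton. Slit proteins signal through Robo receptors, and netrins signal through DCC, neogenin and UNC5 receptors. In blood vessels these ligands and receptors guide sprouts and set the barrier between endothelial cells, and *Robo4* and *Plxnd1* are well known for their expression in endothelium. H3K27ac is found at active promoters and enhancers. A peak therefore marks acetylated chromatin and is not a measure of RNA or protein.

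RefSeq (GRCm38.p6) listed 9 promoter windows for 8 of the 10 genes. Each window runs from 250 bases before a transcription start to 50 bases after it. The 250 bases before the start are printed for 6 genes, 5′ to 3′ on the gene's own strand, because these stretches cover the range found in the peak lists. Those of *Unc5b*, *Plxnd1*, *Robo4* and *Robo1* were overlapped by peaks of both libraries, at *Robo4* and *Robo1* only in part, and are given in order of falling fold enrichment in replicate 3. The stretch of *Sema7a* lay under a peak of replicate 3 only, and that of *Sema3g* lay under no peak. Capitals mark matches to the motifs that were searched.
*Unc5b*, chr10:60831582-60831831, minus strand: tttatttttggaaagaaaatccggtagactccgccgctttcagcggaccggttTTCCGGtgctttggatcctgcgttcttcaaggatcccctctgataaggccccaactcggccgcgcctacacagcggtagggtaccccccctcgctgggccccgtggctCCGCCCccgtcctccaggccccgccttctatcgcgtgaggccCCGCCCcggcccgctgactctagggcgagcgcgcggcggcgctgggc
*Plxnd1*, chr6:115995006-115995255, minus strand: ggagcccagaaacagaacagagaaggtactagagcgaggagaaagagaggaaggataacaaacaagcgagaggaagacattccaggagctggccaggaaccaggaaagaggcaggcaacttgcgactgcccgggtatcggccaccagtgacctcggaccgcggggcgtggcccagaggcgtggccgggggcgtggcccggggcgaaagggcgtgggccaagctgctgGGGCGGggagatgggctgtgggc
*Robo4*, chr9:37401722-37401971, plus strand: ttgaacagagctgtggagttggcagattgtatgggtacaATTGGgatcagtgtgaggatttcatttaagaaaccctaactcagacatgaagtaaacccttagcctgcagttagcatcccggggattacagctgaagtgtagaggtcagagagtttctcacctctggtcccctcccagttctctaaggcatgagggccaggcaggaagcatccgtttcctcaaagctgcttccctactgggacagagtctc
*Robo1*, chr16:72662899-72663148, plus strand: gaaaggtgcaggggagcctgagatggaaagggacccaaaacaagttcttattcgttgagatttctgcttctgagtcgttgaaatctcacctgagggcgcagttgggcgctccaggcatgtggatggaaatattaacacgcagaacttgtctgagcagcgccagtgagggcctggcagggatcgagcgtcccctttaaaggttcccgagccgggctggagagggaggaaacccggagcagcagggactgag
*Sema7a*, chr9:57939862-57940111, plus strand: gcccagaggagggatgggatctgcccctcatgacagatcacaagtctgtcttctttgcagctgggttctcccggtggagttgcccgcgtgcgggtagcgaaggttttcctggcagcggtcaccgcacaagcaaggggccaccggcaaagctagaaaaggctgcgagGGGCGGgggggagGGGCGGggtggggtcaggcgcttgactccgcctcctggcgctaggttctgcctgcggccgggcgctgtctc
*Sema3g*, chr14:31217623-31217872, plus strand: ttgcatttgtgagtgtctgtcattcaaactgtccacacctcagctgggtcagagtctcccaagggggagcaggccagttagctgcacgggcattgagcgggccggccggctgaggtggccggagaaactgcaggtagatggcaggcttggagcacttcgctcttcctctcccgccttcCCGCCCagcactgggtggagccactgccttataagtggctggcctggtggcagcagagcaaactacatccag

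The motifs were searched on both strands of the full windows, and a match is a description of the letters only. The GC box GGGCGG was present in 7 of the 9 windows, against 35.7% of all 32851 windows listed for 27025 genes. The windows of *Robo1* and *Robo4* were those without one. *Unc5b* held the ETS core CCGGAA, which 14.9% of all windows held, and *Robo4* held CCAAT, which 37.4% of all windows held. No window of the 8 genes held the AP-1 motif TGANTCA (7.81% of all windows), the CRE motif TGACGTCA (1.79%), the GATA motif AGATAA (11.2%), the SOX core ATTGTT (10.7%) or the TATA box TATAAA (13.6%). The 9 windows ranged in GC content from 50.3% at *Robo4* to 70.3% at the first listed start of *Plxnb2*, against a median of 52.7% over all windows. *Robo4* was the only one below that median.

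The peaks of replicate 3 outnumbered those of replicate 2 by a factor of 2.39. A replicate 3 peak overlapped 99.2% of replicate 2 peaks, and a replicate 2 peak overlapped 37.7% of replicate 3 peaks. The fold enrichment of a peak over background is the value of the authors' peak caller. It ran from 2.26 to 72.0 in replicate 2 and from 1.90 to 219 in replicate 3, so levels were compared within a library, by the percentile of a peak in its own list. Of the overlapping pairs of peaks, 94.8% had the higher percentile in replicate 3, so a gap in that direction was usual. The lists give no read counts, and the depth is unknown. Of 17 LSEC marker genes, 12 had a shared peak at a gene end, as did 9 of 61 markers of other cells (43.4% of all genes). Among LSEC markers, *Stab2*, *Tek*, *Mrc1* and *Clec4g* had a gene-end peak of replicate 3 only, and *Emcn* had no shared region. Of 13 hepatocyte markers, 2 had a shared gene-end peak, *Trf* and *Ass1*, and 5 had a shared distal region. The count of shared gene-end peaks was 0 of 12 for hepatic stellate cells, where *Col1a1* and *Hgf* had one of replicate 3 only. The windows of 6 of these markers held no peak, among them *Lrat* and *Des*, while *Pdgfra* had 2 shared distal regions and *Pdgfrb* had 2 peaks of replicate 3 only. For Kupffer cells it was 1 of 11, *Cd68*. Another Kupffer marker, *Csf1r*, had 1 shared distal region, and the windows of the other 9, among them *Clec4f*, held no peak. The count was 4 of 10 for other vascular endothelium and smooth muscle, cells that can also carry CD146. The part of such cells in the values below was not tested, and in bulk chromatin a weak mark in every cell cannot be told apart from a strong mark in some cells.

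A shared peak lay at an end of 7 of the 10 genes: *Sema3f*, *Sema6a*, *Plxna2*, *Plxnb2*, *Plxnd1*, *Robo4* and *Unc5b*. Among all protein-coding genes 43.4% had one. When the overlap had to cover 50% of both peaks, the count was 1 of 10, below the 22.0% of all genes. Counted by library, 7 of the 10 had a gene-end peak in replicate 2 (43.4% of all genes) and 8 in replicate 3 (53.9%), the additional gene being *Sema7a*. A shared distal region was present in 8 of the 10 windows, against 39.3% of all genes. The only one of *Plxnb2* lay at an end of the neighbouring gene *Mapk11*. Regions at an end of a neighbour were counted for all genes as well. The windows of the 10 genes had a median of 54.8 kb, against 37.2 kb over all genes. Those of *Sema3g* (32.5 kb) and *Robo4* (32.1 kb) were shorter than the latter. The part of window length in the count of distal regions was not tested. Of the 8 genes with a listed start, 6 had peaks of both libraries over a promoter window, against 43.2% of the 17492 protein-coding genes with such a window. No test was made of these counts, since the 10 genes were chosen with earlier results of these data known.

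**Figure D1:**
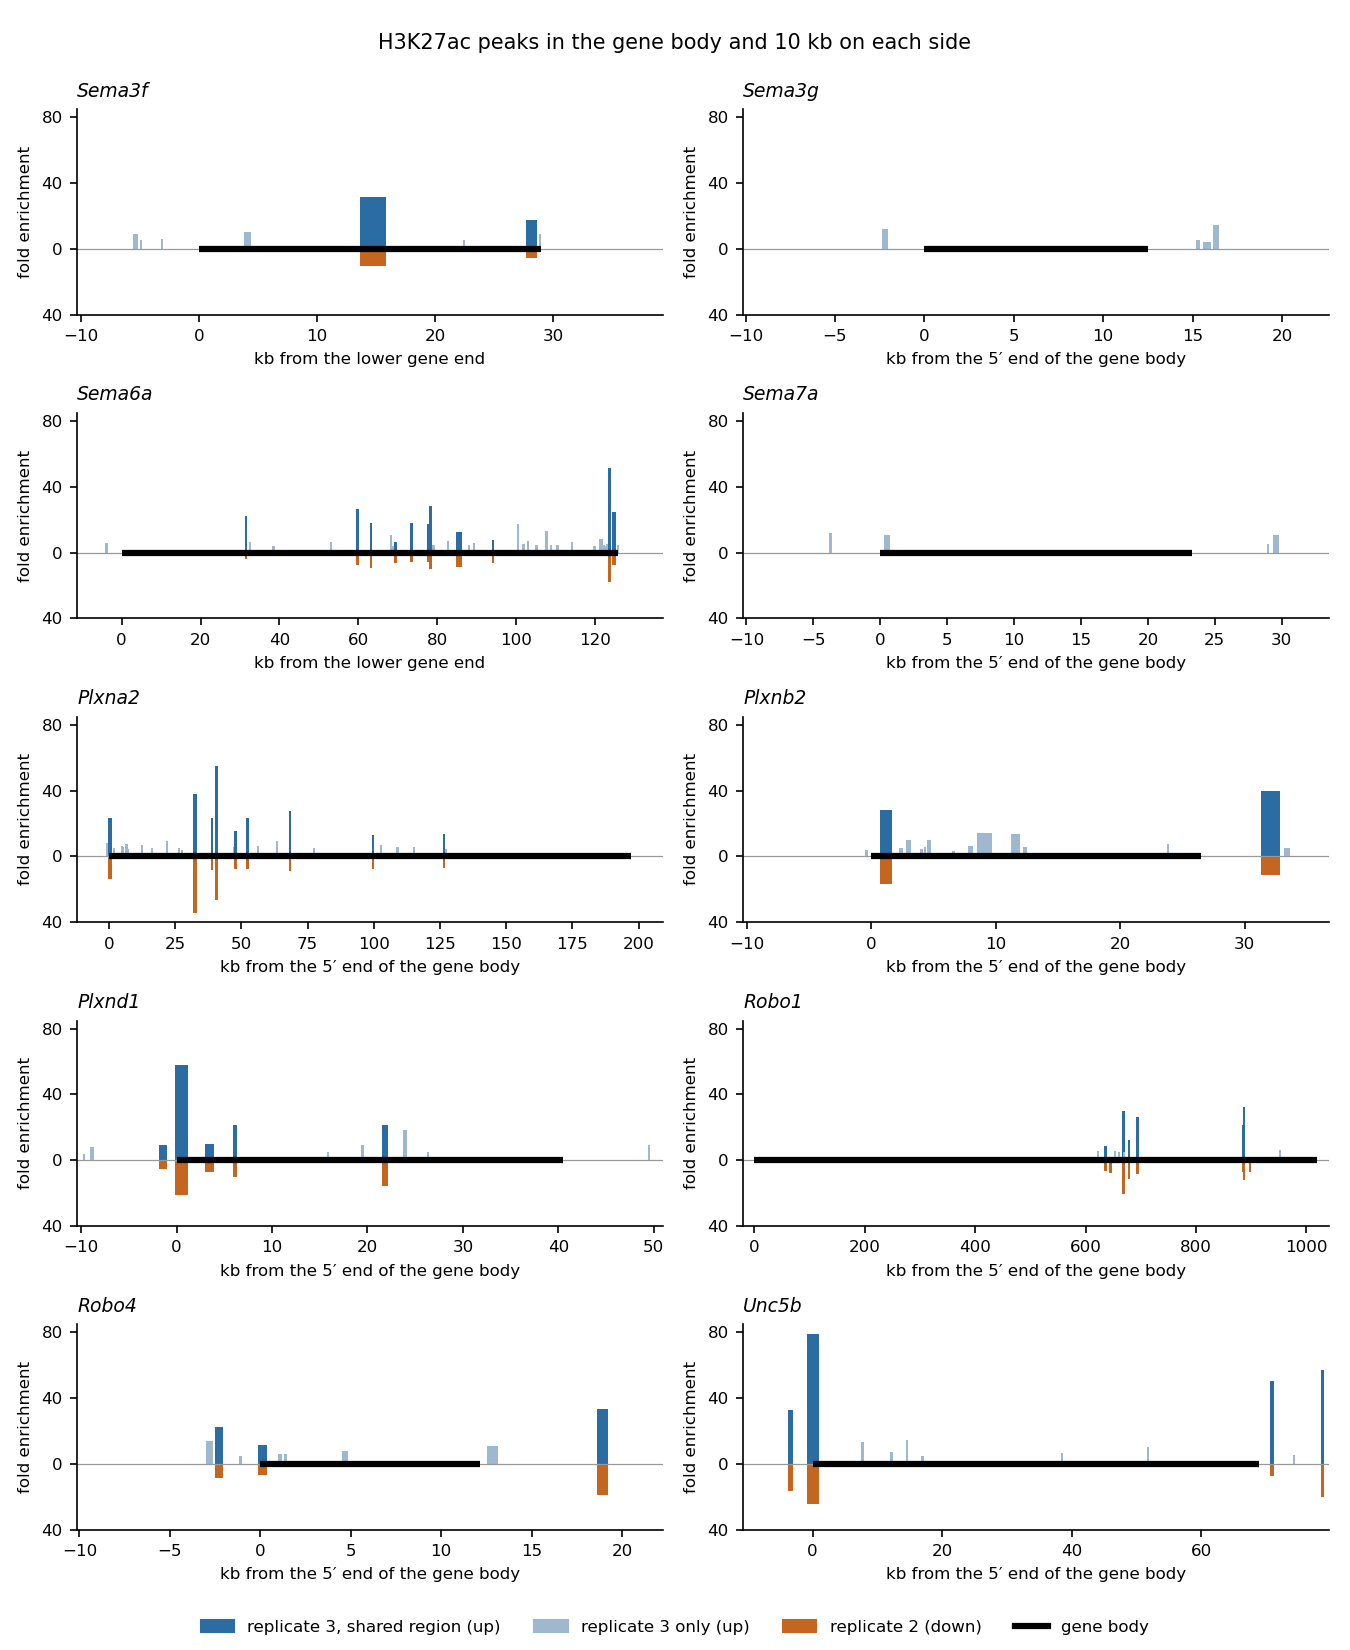
H3K27ac peaks in the windows of the 10 genes. The horizontal axis is the distance in kb from the 5′ end of the gene body (from the lower coordinate for *Sema3f* and *Sema6a*), bars give the fold enrichment over background of replicate 3 upward and of replicate 2 downward, narrow peaks are widened to be visible, and the black line is the gene body. *Unc5b* and *Plxnd1* have their highest bars at the 5′ end (79.1 and 58.1 in replicate 3), *Robo1* has bars in the later part of its body only, and *Sema3g* and *Sema7a* have no replicate 2 peak.

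The 4 semaphorin genes fell into a pair with shared peaks and a pair without. *Sema6a*, a membrane-spanning ligand of class A plexins, held the most regions of all 10 genes. Its window (gene body on chromosome 18, 47245254 to 47371200) had 11 shared regions, 10 of them distal and all inside the gene body. The 11 regions lay between 31.6 and 124.8 kb from the lower end of the gene. The strongest was at 123.7 kb, where the fold enrichment reached 17.6 in replicate 2 and 51.3 in replicate 3. Next to it, within 1 kb of the higher end, was the gene-end region, with 7.46 in replicate 2 and 24.6 in replicate 3. The weakest shared region in replicate 2, at 31.6 kb, had a fold enrichment of 4.07 and the 0.198th percentile of that list, and it had 22.4 and the 77.3rd percentile in replicate 3. A further 24 regions of *Sema6a* had a peak in replicate 3 only.

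*Sema3f* encodes a secreted class 3 ligand that binds neuropilin 2. Its gene body lies on chromosome 9 at 107681499 to 107710475, and the window held 2 shared regions. The stronger was distal, 14.7 kb inside the gene, and was enriched 10.7-fold in replicate 2 and 31.5-fold in replicate 3. Its 2212 bp made it the widest region of the 10 genes. The region near the higher end had 5.49 in replicate 2 and 17.5 in replicate 3. The ends of *Sema3f* and *Sema6a* are given here as lower and higher coordinate.

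*Sema3g*, another secreted class 3 ligand known from endothelium, had no peak of replicate 2 in its window (gene body on chromosome 14, 31217873 to 31230352). Replicate 3 had 4 peaks there, all in the flanks, with fold enrichments of 4.46, 5.54, 12.0 and 14.3. The peak nearest to the promoter window lay 1783 bp away in replicate 3, and 10585 bp away in replicate 2. *Sema7a*, a lipid-anchored ligand of plexin C1 and of integrins, likewise had 4 peaks of replicate 3 and none of replicate 2. Its gene body lies on chromosome 9 at 57939596 to 57962865. A peak of replicate 3 spanned the listed start, with its summit 3 bp before that start, a fold enrichment of 10.9 and the 57.7th percentile of its list. In the whole replicate 3 list, 4385 peaks came within 10% of this fold enrichment, and 28.4% of them had a replicate 2 peak (95% Wilson interval, 27.1% to 29.7%, for the count of peaks only). For the strongest peak of *Sema3g* that share was 50.2% (48.6% to 51.8%). The absence of a replicate 2 peak was thus the more common outcome at the strength of the *Sema7a* promoter peak, and it does not show that the mark was missing.

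All 3 plexin genes had shared peaks over a listed promoter window. *Plxnd1*, the receptor of semaphorin 3E on endothelial cells, had the highest of them. Its gene body lies on chromosome 6 at 115954811 to 115995339 on the minus strand. The region over the 5′ end was enriched 21.4-fold in replicate 2 (85.3rd percentile) and 58.1-fold in replicate 3 (93.6th percentile). It was the strongest region of the gene in both libraries. Another 4 shared regions were distal: 3 inside the gene at 3.49, 6.12 and 21.9 kb from its 5′ end, and 1 before it. The last of these lay 1011 bp from the gene end, just past the limit of 1 kb, with 5.62 in replicate 2 and 9.32 in replicate 3.

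*Plxna2*, a class A plexin and a receptor of semaphorin 6A, is a long gene on chromosome 1 at 194619791 to 194816869, on the plus strand. Its 5′ end carried a shared region of 14.0 in replicate 2 and 23.5 in replicate 3. The 8 distal regions all lay inside the gene, the last at 126.5 kb, and 2 of them were stronger than the 5′ end in both libraries. The region at 32.4 kb had 34.6 in replicate 2 (96.9th percentile) and 37.9 in replicate 3 (87.2nd percentile), and the region at 40.6 kb had 26.4 and 54.9. The libraries thus differed in which of them ranked first. The value of 34.6 was the highest of any peak of replicate 2 in the 10 windows.

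*Plxnb2* encodes a plexin of class B, a receptor of class 4 semaphorins such as semaphorin 4C. Its gene body lies on chromosome 15 at 89155546 to 89182018 on the minus strand. The shared gene-end region covered the listed start 1.23 kb inside the gene, with 16.9 in replicate 2 and 28.0 in replicate 3. It also lay within 1 kb of an end of the neighbouring gene *Dennd6b*, so it cannot be assigned to *Plxnb2* alone. The only shared distal region, at 32.1 kb and past the 3′ end, had 11.6 in replicate 2 and 39.7 in replicate 3. It lay within 1 kb of an end of *Mapk11*, which encodes a p38 kinase. No shared distal region lay inside *Plxnb2* itself. Between 2.40 and 12.3 kb from the 5′ end, replicate 3 alone had peaks, and one of them, with a fold enrichment of 6.23, covered the second listed start of the gene.

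*Robo4*, the Robo receptor of endothelium and a binding partner of UNC5B, is a short gene on chromosome 9 at 37401902 to 37414023, on the plus strand. A shared region spanned its 5′ end. With fold enrichments of 6.78 in replicate 2 (25.3rd percentile) and 11.2 in replicate 3 (58.7th percentile), it was the lowest of the 7 gene-end regions in replicate 3 and the second lowest in replicate 2. Both shared distal regions of the window were stronger than the promoter in both libraries. The region before the 5′ end, 2049 bp away, had 8.81 in replicate 2 and 22.5 in replicate 3. The region at 18.9 kb had 18.9 in replicate 2 and 33.3 in replicate 3, but lay within the body of the next gene, *Robo3*. Just inside the limit of 1 kb from the 5′ end were peaks of replicate 3 only, at 965 and 995 bp, with 6.19 and 4.56.

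*Robo1*, the broadly expressed Slit receptor, is the longest of the 10 genes, 1020 kb on chromosome 16 at 72027518 to 73047491 on the plus strand. No peak of either library lay within 1 kb of its ends. All of its 7 shared regions lay far inside the gene, 5 of them between 636 and 695 kb from the 5′ end and the other 2 at 885.8 and 886.9 kb. The first of them covered the start listed by RefSeq, 635.6 kb inside the gene body and printed above. It was the weakest of the 7 in replicate 3, with 8.79, and had 6.78 in replicate 2. The strongest was at 668.5 kb in replicate 2 (20.6, against 29.6 in replicate 3) and at 886.9 kb in replicate 3 (32.6, against 12.2 in replicate 2). *Robo1* was also the only gene of the 10 with peaks in replicate 2 only. These lay at 644.9 and 897.5 kb, with fold enrichments of 8.13 and 7.46. In the whole list, 226 peaks of replicate 2 had no replicate 3 peak, and *Robo1* was 1 of 7 genes with 2 of them in its window, the most in any gene.

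*Unc5b*, the netrin receptor of endothelial cells, carried the strongest gene-end region of the 10 genes. Its gene body lies on chromosome 10 at 60762594 to 60831581 on the minus strand. The region spanned 1855 bp over the 5′ end, and was enriched 24.4-fold in replicate 2 (89.5th percentile) and 79.1-fold in replicate 3 (97.0th percentile). The 3 shared distal regions were all in the flanks and none in the body. The region before the 5′ end, 3045 bp away, had 16.3 in replicate 2 and 32.8 in replicate 3. Past the 3′ end, the region at 70.9 kb had 7.66 (34.5th percentile) and 50.2 (91.6th percentile). Nearly all shared regions of the 10 genes ranked higher in replicate 3. The outermost region, 9485 bp from the gene and so just inside the window, had 20.3 and 57.0 and lay within 1 kb of an end of *Slc29a3*, which encodes a nucleoside transporter. Inside the body there were 6 peaks of replicate 3 only, the highest with 14.6.

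**Figure D2:**
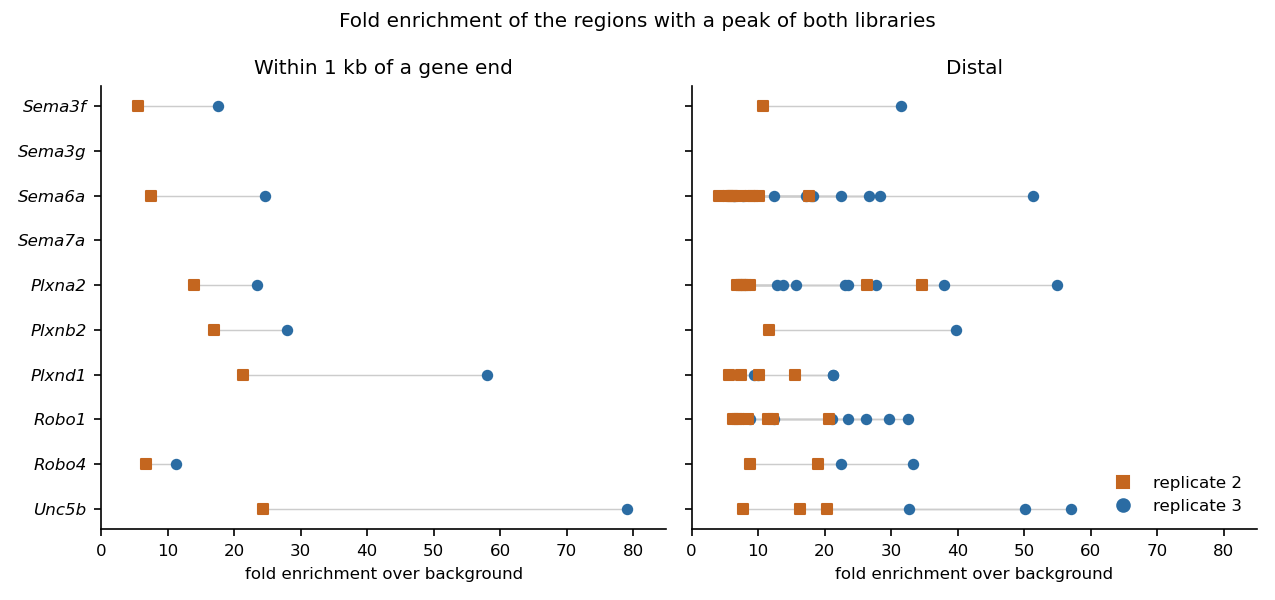
Fold enrichment over background (horizontal axis) of every region with a peak of both libraries, by gene, with gene-end regions on the left and distal regions on the right. Squares are replicate 2, circles are replicate 3 and lines join the values of 1 region. All 43 lines run from a lower value in replicate 2 to a higher value in replicate 3, and *Unc5b* reaches the highest gene-end value, 79.1.

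Over the 10 genes there were 43 shared regions, 7 at gene ends and 36 distal. Of the distal regions, 29 lay in a gene body and 7 in a flank, 2 lay at an end of a neighbouring gene, and 1, in *Robo1*, lay on a listed promoter window. In replicate 3 the gene-end and the distal regions had like medians, 24.6 (79.2nd percentile) and 22.8 (77.7th percentile). In replicate 2 the medians were 14.0 (68.3rd percentile) and 8.63 (41.1st percentile). Gene-end regions were also wider, with a median of 1184 bp against 559 bp. All 43 regions had a higher fold enrichment in replicate 3, as did 97.2% of the 26844 overlapping pairs of peaks in the whole lists. The percentile was higher in replicate 3 for 41 of the 43 regions, and for 94.8% of the pairs. The order of the regions was partly kept between libraries. Spearman's rho across the 43 regions was 0.744, and across all overlapping pairs it was 0.724. Regions of 1 gene share a library and are not independent. The strongest shared region was the same in both libraries for 5 of 8 genes, *Sema3f*, *Sema6a*, *Plxnd1*, *Robo4* and *Unc5b*.

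The other regions rested on 1 library. Of the 138 replicate 3 peaks in the windows, 31.2% had a replicate 2 peak, against 38.7% of the 51924 replicate 3 peaks in the windows of all protein-coding genes. Of the 50 replicate 2 peaks, 48 (96.0%) had a replicate 3 peak, against 99.3% of the 22427 replicate 2 peaks in the windows of all protein-coding genes. The 95 regions of replicate 3 only had fold enrichments of 3.54 to 18.2 with a median of 5.81 (26.5th percentile), and 24 of them ranked in the upper part of their list, above its median. The highest, 24.0 kb inside *Plxnd1*, had 18.2. In the whole list, 3134 peaks came within 10% of that value, and 72.8% of them had a replicate 2 peak (95% Wilson interval, 71.3% to 74.4%). The highest of *Sema6a*, at 100.6 kb, had 17.3, a level at which 68.7% had one (67.1% to 70.3%).

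**Figure D3:**
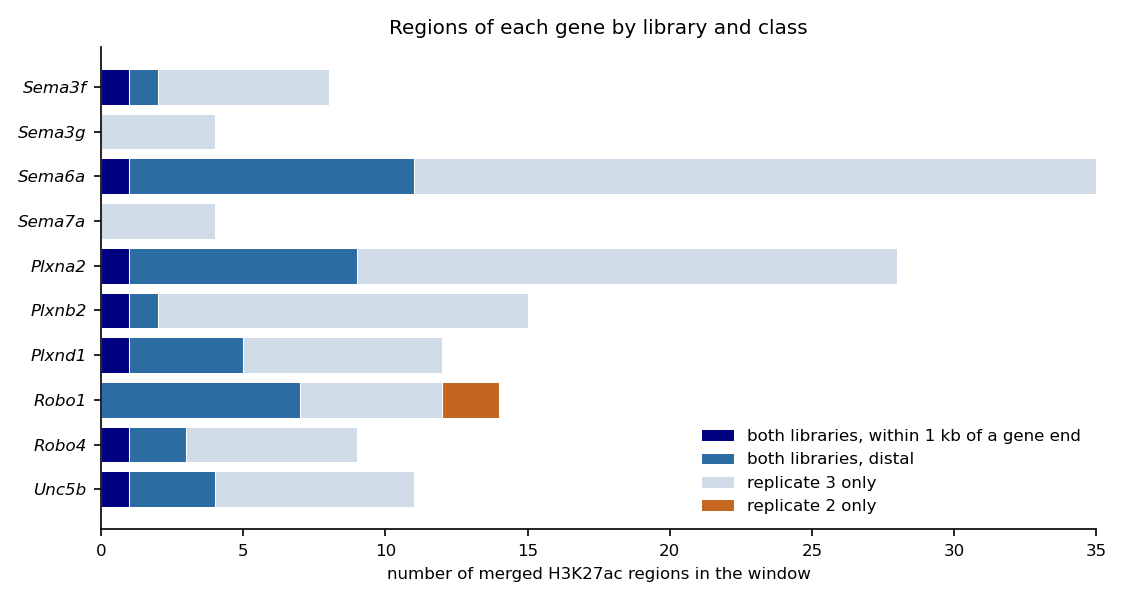
Number of merged H3K27ac regions in the window of each gene (horizontal axis), by the library or libraries with a peak and, for shared regions, by distance from the gene ends. *Sema6a* has the longest bar, with 11 shared regions and 24 of replicate 3 only, and *Robo1* alone has regions of replicate 2 only, 2 in number.

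The share of a window covered by peaks of both libraries takes the length of a gene into account. It was highest at *Plxnd1*, with 3.22% (88.3rd percentile of all protein-coding genes), followed by *Robo4* with 2.31% (80.5th), *Plxnb2* with 2.24% (79.8th) and *Plxna2* with 1.97% (76.3rd). *Unc5b* with 1.87%, *Sema3f* with 1.84% and *Sema6a* with 1.75% lay close together between the 73.2nd and the 74.9th percentile. *Robo1*, with 7 distal regions in a very long window, had 0.282% (44.4th percentile), and *Sema3g* and *Sema7a* had 0. All genes with a covered share of 0 were tied and took the same averaged rank, the 20.8th percentile. The median of the 10 genes was 1.86%, against 0.577% over all genes, and 7 of the 10 lay above that. With 1 value per gene from both libraries together, neighbours in this order cannot be separated by a replicate error. The order also depended on the flank. With flanks of 50 kb, *Sema3g* rose from the 20.8th to the 90.3rd percentile, with 6 shared distal regions. That wider window takes in an end of *Stab1*, an LSEC marker with a shared gene-end peak. The 6 regions were distal to *Sema3g* only, so they cannot be assigned to *Sema3g* alone. With no flank, *Sema3f* rose to the 86.9th percentile, while *Robo4* fell to the 72.1st and *Unc5b* to the 55.5th.

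**Figure D4:**
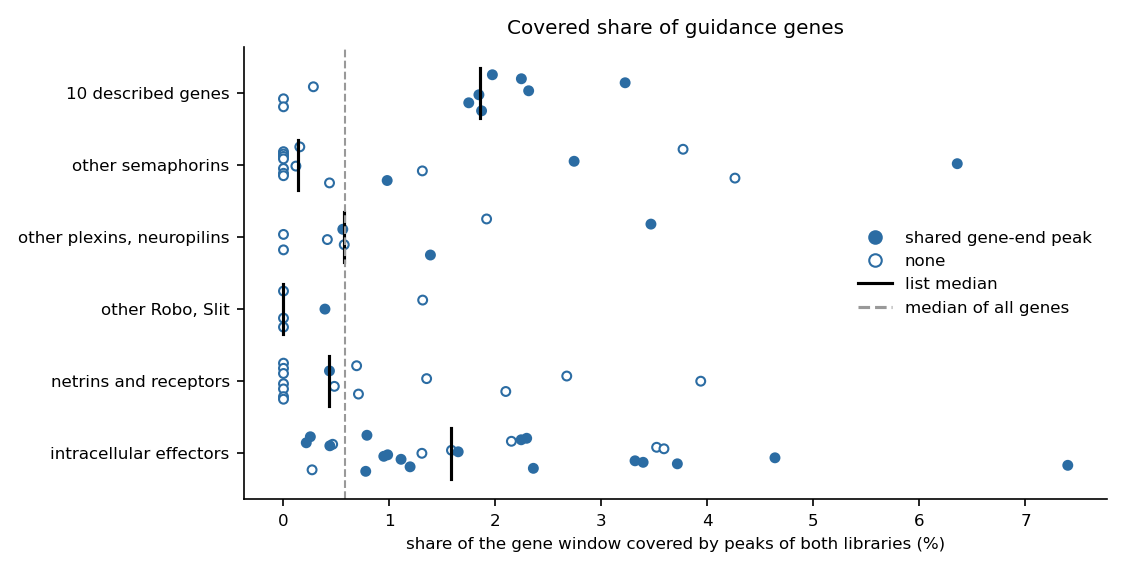
Share of each gene's window covered by peaks of both libraries (horizontal axis, %), for the 10 genes and for 5 lists of other guidance genes, 1 point a gene. Filled points have a shared peak within 1 kb of a gene end, black lines are list medians and the dashed line is the median of all protein-coding genes (0.577%). The median of the 10 genes is 1.86% and that of the intracellular effectors 1.58%, and the other lists have medians from 0 to 0.566%.

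Among 69 other genes of these pathways, 26 had a shared gene-end peak (37.7%, against 43.4% of all genes), and the count differed between the lists. Of 16 other semaphorins 3 had one: *Sema4c*, a ligand of plexin B2, with 76.8 in replicate 3, *Sema6c* with 62.5 and *Sema4b* with 10.7. The windows of 4 semaphorins held no peak of either library, among them those of *Sema3c* and of *Sema3e*, the ligand of plexin D1. Of 8 other plexins and neuropilins 3 had one: *Nrp2*, the coreceptor of semaphorins 3F and 3G, with 16.9 in replicate 2 and 44.9 in replicate 3, *Plxna1* with 26.4 in replicate 3 and *Plxnc1*, the receptor of semaphorin 7A, with 10.8. *Nrp2* also had 10 shared distal regions. *Nrp1* had 7, but the replicate 2 peak that overlapped its gene-end peak of replicate 3 (17.9) lay more than 1 kb from the gene end.

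Of the 5 other Robo and Slit genes only *Slit1* had a shared gene-end peak (43.4% of all genes had one), with 23.7 in replicate 2 and 72.0 in replicate 3. *Slit2* had 2 peaks of replicate 3 and no shared region, and *Slit3* had no peak. Of 15 netrins, netrin receptors and related ligands only *Neo1*, which encodes neogenin, had one, with 7.46 and 14.3. *Ntn4*, a basement membrane netrin, had a gene-end peak of replicate 3 only (6.19) and 6 shared distal regions. *Flrt2*, a membrane ligand of UNC5 receptors, had a gene-end peak of replicate 3 only (6.84) and 3 shared distal regions. Of the other UNC5 genes, *Unc5c* and *Unc5d* had no peak in their windows, while *Unc5a*, named after its values were seen, had 3 shared distal regions and no gene-end peak.

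Of the 25 intracellular effectors, 18 had a shared gene-end peak (72.0%, against 43.4% of all genes). The highest values in replicate 3 were those of *Rhoa*, the small GTPase, with 99.6, *Nck1*, an adaptor of guidance receptors, with 98.0, *Rras*, a GTPase acted on by plexins, with 94.4, and *Farp2*, an exchange factor that binds class A plexins, with 77.8. In replicate 2 these genes had 31.9, 33.2, 37.8 and 17.6. *Gipc1*, whose product binds plexin D1, had no gene-end peak but had 4 shared distal regions. Effectors of this kind are used by most cells. For the genes in all of these lists, it was not checked whether a gene-end peak also lay at an end of a neighbouring gene.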

How the data were processed

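H3K27ac ChIP-Seq was made from 2 LSEC libraries, each with an input library that was not analysed here on its own. The submitters' processing notes name cutadapt 0.4.4, BWA 0.7.17, Picard 1.67, MACS2 2.0.10, bedtools 2.27.1 and the mm10 build (GRCm38). Whether the inputs entered the peak calls was not established here. The authors called peaks per library, not on pooled libraries. In the deposited lists, fold enrichment is a ratio over background, significance is given as the −log10 of a p-value and of a q-value from the authors' caller (all q-values under 0.01), the final column is the summit offset, and the score in the deposited files restates the significance on another scale. More sequencing yields more peaks, and the depth is unknown.

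Positions are printed as in the lists, counted from 1. Gene bodies came from the GRCm38 gene table, and starts, strands and promoter sequences from RefSeq (GRCm38.p6). The gene table holds no exons, so exonic and intronic peaks were not separated. Overlapping peaks were merged into regions, and a region took the highest fold enrichment of each library. A shared gene-end peak needs overlapping peaks of both libraries that each lie within 1 kb of an end. Percentiles are ranks of fold enrichment within a library. The overlap steps were tested on simulated data. No test of significance was made, since both libraries belong to 1 condition, and intervals cover counts of peaks only. The 10 genes and all gene lists were chosen with earlier results of these data known.

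Genes named beside the 10 were, in each list, up to 4 with the highest shared gene-end fold enrichment in replicate 3 and the first 2 without a peak, the binding partners *Nrp1*, *Nrp2*, *Slit2*, *Slit3*, *Sema3e*, *Ntn4*, *Flrt2* and *Gipc1*, and neighbours with an end at a shared region. *Robo3*, *Unc5a* and the cell markers named were chosen after their values were seen. The alternatives were a stricter q-value, equal numbers of top peaks per library, a reciprocal overlap, other windows and each library alone. Calculations were made in Python 3.11.15 with pandas 2.3.3 and numpy 2.4.6, intervals with scipy 1.17.1, and figures with matplotlib 3.10.9.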

Additional observations from a re-analysis of the deposited data

How the results depend on the processing

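Of 40 alternative values of the 5 main results, 30 stayed within their limits (1.5 times for a count) and 10 moved. Some had little room to move. A replicate 3 peak overlapped 99.2% of replicate 2 peaks, so counts without replicate 3 nearly repeat the main ones. A count of 7 of 10 cannot rise past its limit. The limit of the median percentile, 7.83, is the standard deviation of the 2 single-library values. At the stricter q-value *Sema3f* lost its shared gene-end peak, within the limit. A reciprocal overlap of at least 50% moved every one of the 5: the genes with a shared gene-end peak fell from 7 to 1 (22.0% of all genes), the shared distal regions from 36 to 18, the median percentile of the covered share from 74.8 to 65.2, the percentage of replicate 3 peaks that a replicate 2 peak overlapped from 31.2% to 13.8%, and the pathway genes with a shared gene-end peak from 26 to 7. With equal numbers of top peaks per library that percentage was 77.6%, and with flanks of 50 kb there were 61 shared distal regions. Counted from 1 library alone, distal regions numbered 42 without replicate 3 and 123 without replicate 2, the median percentile ran from 74.6 to 85.7, and the pathway genes from 26 to 41. The cause of these shifts was not tested. At the 7 shared gene-end regions, replicate 2 peaks covered fewer bases than replicate 3 peaks. They covered 238 against 1184 bp at *Sema6a* and 788 against 966 bp at *Plxnb2*, the gene that kept its call at 50% overlap. At *Plxna2* they covered 1107 against 1637 bp, and its call was lost. The values of *Plxnb2* and *Plxna2* add up 2 replicate 2 peaks, while the 50% rule was applied to single pairs of peaks. No paired analysis was possible because both H3K27ac libraries belong to 1 condition and no input peaks were analysed here.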

Other observations

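Among 216 genes with at least 10 replicate 2 peaks in their windows, replicate 3 had a median of 2.08 times as many peaks as replicate 2. *Robo1* had 1.20 times as many, and 9.72% of those genes had a ratio as low or lower. The window of *Robo2*, a list gene outside the naming rule that was chosen after its values were seen, held a single peak, which was in replicate 2 only. The cause was not tested.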
